A study of Mus musculus with 4 samples.

Results

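Intermediate filament and lamin genes were described in whole mouse hearts, as 9 genes named by symbol: Des, Vim, Krt8, Krt18, Nes, Synm, Lmna, Lmnb1 and Lmnb2. Of these, 8 were among the 12408 genes of the expression tables, and Krt8 was not analysed here. RNA sequencing was done on hearts of 4 C57BL/6 mice, each 3 months old, all of them with floxed copies of WW45, a gene of the Hippo pathway listed under its symbol Sav1. The 2 mice labelled cKO also carried Cre recombinase under the alpha-myosin heavy chain promoter, which is active in cardiomyocytes, so the other cells of those hearts keep the gene. The 2 mice labelled CT carried no Cre. Transverse aortic constriction (TAC), a narrowing of the aorta that puts a pressure load on the left ventricle, had been in place for 4 weeks in 1 mouse of each genotype, and the other mouse was at baseline. The groups were thus cKO TAC, cKO baseline, CT TAC and CT baseline, with 1 library each. No library is labelled as sham-operated or as Cre without floxed WW45, so surgery and load, and Cre and deletion, cannot be told apart.

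Intermediate filaments are rope-like polymers of the cytoskeleton and of the nuclear lining. Desmin is the filament of adult heart muscle, where it ties Z-discs to each other, to mitochondria and to the cell membrane. Vimentin is the filament of fibroblasts, endothelial cells and leukocytes. Keratin 18 pairs with keratin 8 in simple epithelia and in embryonic heart muscle, nestin marks progenitor and newly formed cells, and synemin joins desmin or vimentin to costameres. Lamins A and C, both made from Lmna, and the B-type lamins from Lmnb1 and Lmnb2 form the meshwork under the inner nuclear membrane.

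The libraries held 1587840 to 2796547 reads, and each read equalled 0.371 to 0.612 CPM, the unit of reads scaled to library size. Sav1, the floxed gene, had 85 reads in cKO TAC, 65 in cKO baseline, 71 in CT TAC and 133 in CT baseline. Its log2 ratio was 0.38 for cKO TAC over CT TAC (95% counting interval of the ratio 0.941 to 1.81). For cKO baseline over CT baseline it was -0.31 (0.590 to 1.09). The direction in cKO TAC goes against that library's label, but both intervals included 1. Each genotype direction below therefore compares libraries as labelled. Whether reads over the deleted exons were lost cannot be seen from a value per gene. All 9 cardiomyocyte markers were measured, with a summed level of 106737 to 151497 CPM. With 1 mouse per group no ratio between 2 libraries has a replicate check. A gene is said to pass where 2 libraries were at least 2-fold apart and the 95% counting interval of their ratio excluded 1. In a bulk sample, fewer cells of a type and less RNA per cell cannot be told apart.

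Krt18 had the widest range of the 8 genes, and it was higher under TAC and in the libraries labelled cKO. The gene (chromosome 15, 102028180 to 102032027, mm10) had 57 reads in cKO TAC, 14 in cKO baseline, 22 in CT TAC and 6 in CT baseline. This corresponds to 31.0 CPM in cKO TAC (95% counting interval 23.5 to 40.2), 8.56 in cKO baseline (4.68 to 14.4), 11.0 in CT TAC (6.88 to 16.6) and 2.22 in CT baseline (0.816 to 4.84). cKO TAC was thus the highest and CT baseline the lowest, and the interval of cKO baseline overlapped those of CT TAC and, narrowly, CT baseline. Krt18 and Vim were the members that rose under TAC in the model over all libraries described below. Their promoters are therefore shown, from 250 bases before to 50 bases after the RefSeq start (RefSeq, GRCm38.p6, plus strand), at chr15:102027966-102028265 for Krt18 and chr2:13574061-13574360 for Vim. Capitals mark matches, on either strand, to the TEAD core CATTCC, the TATA motif TATAAA, the CCAAT box, the SP1 motif GGGCGG, the AP-1 motif TGANTCA or the CArG box.
Krt18: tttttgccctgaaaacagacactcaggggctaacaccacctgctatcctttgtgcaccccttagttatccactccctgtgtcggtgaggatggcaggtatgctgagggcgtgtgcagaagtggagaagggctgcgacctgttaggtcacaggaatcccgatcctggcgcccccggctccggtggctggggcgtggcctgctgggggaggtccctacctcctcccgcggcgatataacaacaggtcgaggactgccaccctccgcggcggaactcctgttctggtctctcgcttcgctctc
Vim: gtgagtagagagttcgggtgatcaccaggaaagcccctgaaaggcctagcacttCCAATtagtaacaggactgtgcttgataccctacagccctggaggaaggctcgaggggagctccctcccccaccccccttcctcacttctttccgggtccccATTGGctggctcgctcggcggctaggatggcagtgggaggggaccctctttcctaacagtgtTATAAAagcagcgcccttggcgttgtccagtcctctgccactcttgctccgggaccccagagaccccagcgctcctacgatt
The Krt18 window held none of the 6 motifs. The Vim window held TATAAA at position -32 from the start and CCAAT at -196 on the plus strand and at -94 on the minus strand. Among 32851 RefSeq promoters of the same length, 13.6% held TATAAA and 37.4% CCAAT. The TEAD core, found in 14.7% of promoters, the CArG box (1.63%), the AP-1 motif (7.81%) and the SP1 motif (35.7%) were in neither window.

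Krt18 passed in each of the 4 pairs of libraries. The log2 ratio was 2.08 for CT TAC over CT baseline (ratio interval 1.94 to 14.9) and 1.80 for cKO TAC over cKO baseline (1.99 to 7.03). Of all genes, 10.7% passed in the CT pair, 6.05% as higher, and 6.52% passed in the cKO pair, 3.69% as higher. Between genotypes the log2 ratio was 1.46 for cKO TAC over CT TAC (1.70 to 4.85) and 1.74 for cKO baseline over CT baseline (1.39 to 12.2). Of all genes, 5.02% passed for cKO TAC over CT TAC, 2.93% as higher, and 5.07% passed for cKO baseline over CT baseline, 3.26% as higher. Between 1.48% and 2.95% of genes had a higher ratio than Krt18 in these 4 pairs. The pairs that use CT baseline, with its 6 reads, had the widest intervals.

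**Figure D1:**
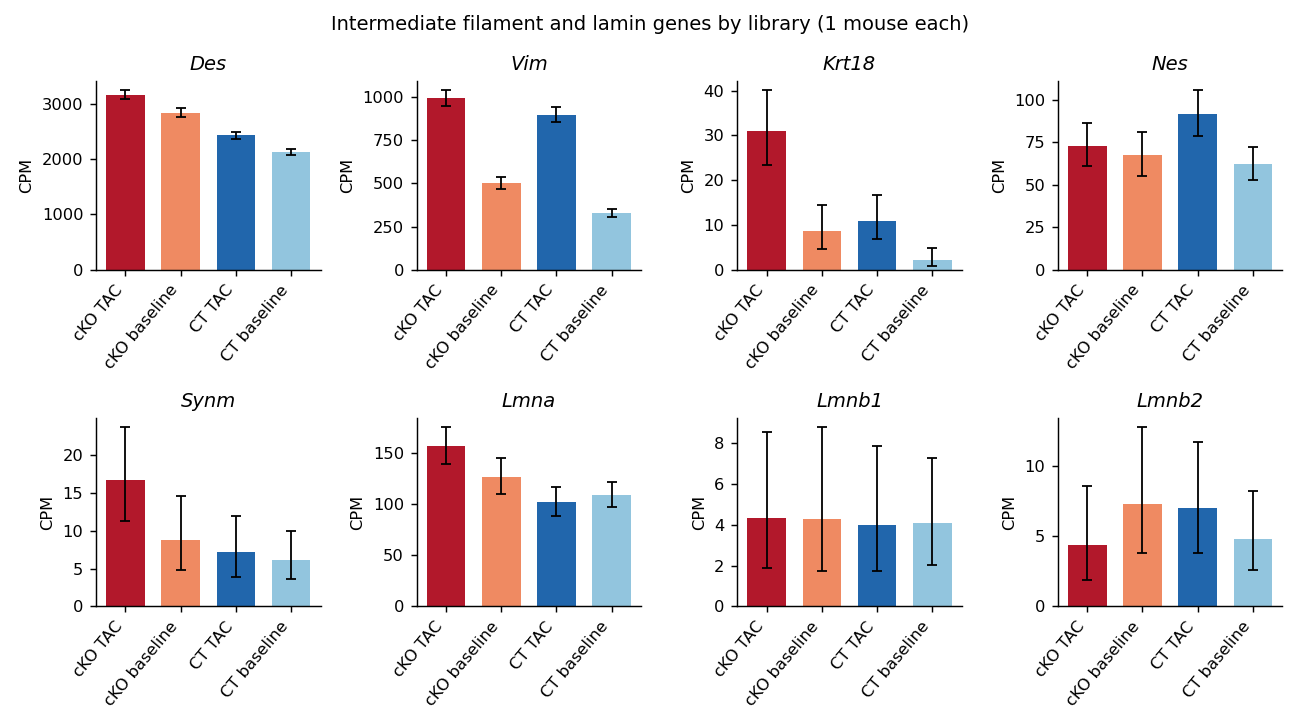
Level of each gene in CPM (vertical axis, from 0, with its own scale per gene) in the 4 libraries of 1 mouse each; bars are values and whiskers 95% Poisson counting intervals. Krt18 and Vim were highest in cKO TAC and lowest in CT baseline, Des was higher in both cKO libraries than in either CT library, and Lmnb1 lay between 3.99 and 4.35 CPM.

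A fit over all 4 libraries (limma on log2 CPM, with terms for surgery and genotype and Benjamini-Hochberg adjustment over 12408 genes) called 1.82% of genes under TAC, 1.3% as higher and 0.524% as lower. An unadjusted p under 0.05 was found for 16.2% of genes. Of the 8 members, 2 were called, Krt18 and Vim. Krt18 rose under TAC by 1.94 log2 units (SE 0.38, adjusted p = 0.0322), with TAC higher in 2 of 2 pairs. The genotype difference of Krt18, 1.60 log2 units higher in cKO than in CT (SE 0.38), did not pass (limma adjusted p = 0.308). For genotype this fit called 0 of the 8 members and 0.0242% of all genes, or 3, all of them higher. An unadjusted p under 0.05 was found for 964 genes (7.77%). The 3 genes, named after their values were seen, were Acta2, Ctgf and Prg4. The fit has 1 residual degree of freedom, which is the difference between the 2 genotype effects and no spread between mice of a group. In fits without 1 library, which also lack the genotype term, Krt18 lost its call whichever library was left out, and over all 10 alternatives its adjusted p ranged from 0.0183 to 0.69.

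Vim, on chromosome 2 from 13573927 to 13582826, was the second member to rise under TAC. It had 994 CPM in cKO TAC, 499.7 in cKO baseline, 898 in CT TAC and 328 in CT baseline, on 817 to 1828 reads. Both TAC libraries were above both baseline libraries, and the counting intervals of cKO TAC (949 to 1041) and CT TAC (857 to 941) did not overlap. The log2 ratio was 1.45 for CT TAC over CT baseline (ratio interval 2.52 to 2.97), which passed. It was 0.99 for cKO TAC over cKO baseline (1.83 to 2.16), just under the 2-fold threshold. Between genotypes Vim did not pass, with 0.15 for cKO TAC over CT TAC (1.04 to 1.18) and 0.60 for cKO baseline over CT baseline (1.38 to 1.68). In limma's fit Vim rose under TAC by 1.22 log2 units (SE 0.18, adjusted p = 0.00769), with TAC higher in 2 of 2 pairs, and its genotype difference of 0.38 (SE 0.18) did not pass (adjusted p = 0.649). The TAC call was kept without cKO baseline and lost without cKO TAC, CT TAC or CT baseline, in fits that also lack the genotype term, and the adjusted p over all 10 alternatives ranged from 0.00324 to 0.416.

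The fibroblast markers moved with Vim. The summed level of 12 measured fibroblast markers was 9771 CPM in cKO TAC, 5714 in cKO baseline, 8299 in CT TAC and 4125 in CT baseline, and none was at 0 reads in any library. Of these 12, 9 were higher for CT TAC over CT baseline, 8 for cKO TAC over cKO baseline and 6 for cKO baseline over CT baseline, and none was lower in these pairs. For cKO TAC over CT TAC none of the 12 passed, with a median log2 ratio of 0.08. The sum of 12 macrophage markers was 917 CPM in cKO TAC, 1037 in cKO baseline, 669 in CT TAC and 453 in CT baseline. Of these macrophage markers 12 had a log2 ratio above 0 for cKO baseline over CT baseline and 11 for CT TAC over CT baseline. The numbers were 10 for cKO TAC over CT TAC and 2 for cKO TAC over cKO baseline. The sum of 12 endothelial markers lay between 2060 and 2423 CPM. The part of these cell types in the values of Vim was not tested.

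**Figure D2:**
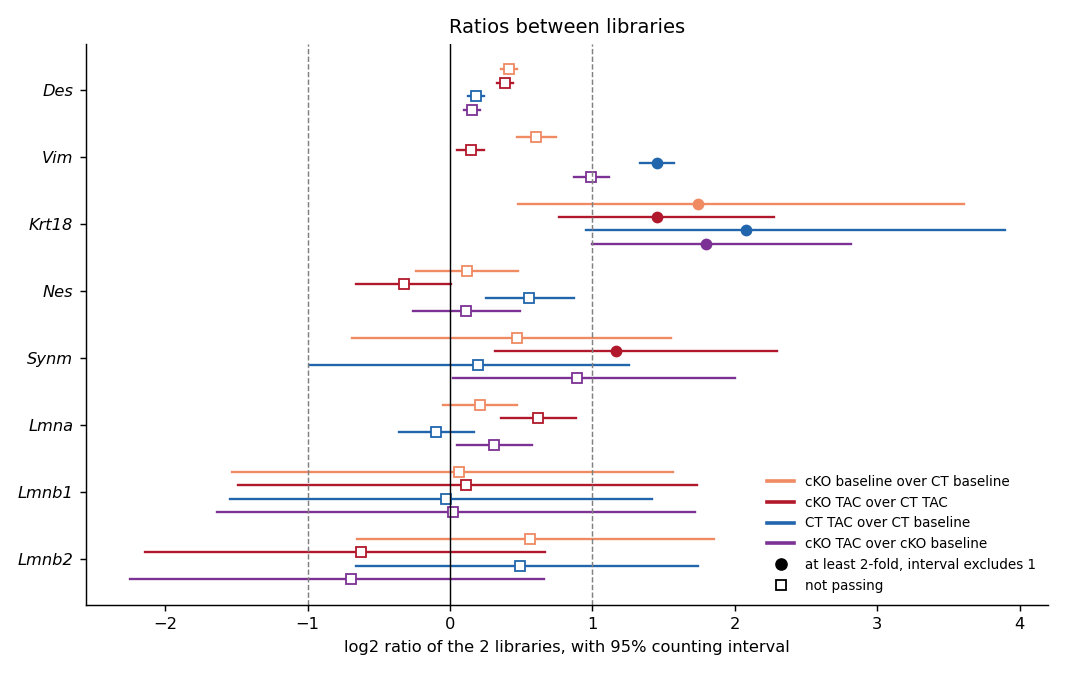
Log2 ratio between 2 libraries (horizontal axis) for each gene, with 95% counting intervals as lines; filled circles passed and open squares did not, and dashed lines mark 2-fold. Krt18 passed in all 4 pairs, Vim for CT TAC over CT baseline and Synm for cKO TAC over CT TAC.

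Des, on chromosome 1 from 75360329 to 75368579, had by far the most reads of the 8 genes and differed little. It had 3162 CPM in cKO TAC (3081 to 3244), 2838 in cKO baseline (2756 to 2920), 2423 in CT TAC (2356 to 2493) and 2132 in CT baseline (2078 to 2188). None of the 4 counting intervals overlapped, and both cKO libraries were above both CT libraries. The log2 ratio was 0.38 for cKO TAC over CT TAC and 0.41 for cKO baseline over CT baseline, and 24.1% and 21.6% of all genes had a higher one. It was 0.18 for CT TAC over CT baseline and 0.16 for cKO TAC over cKO baseline. No pair passed, and limma called Des neither for genotype (0.40 higher in cKO, SE 0.17, adjusted p = 0.619) nor for TAC (0.17, SE 0.17, adjusted p = 0.666). The 9 cardiomyocyte markers had a summed level of 106737 CPM in cKO TAC, 127825 in cKO baseline, 132514 in CT TAC and 151497 in CT baseline. Single markers differed in order. Tnnt2, the gene of cardiac troponin T, was like Des higher in both cKO libraries, with 5317 CPM in cKO TAC, 6193 in cKO baseline, 3780 in CT TAC and 4578 in CT baseline. Myh6, the alpha-myosin heavy chain gene, had 33239 CPM in cKO TAC, 41570 in cKO baseline, 51827 in CT TAC and 57903 in CT baseline. These 2 markers were chosen after their values were seen, and had the highest and the lowest ratio of the 9 in both genotype pairs. Of the 9 markers, 2 had a log2 ratio above 0 for cKO baseline over CT baseline (median -0.06). For cKO TAC over CT TAC 4 of 9 did (median -0.09).

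Within a library, the number of Vim reads per 100 Des reads does not depend on how libraries are scaled. It was 31.4 in cKO TAC (exact interval 29.8 to 33.1), 17.6 in cKO baseline (16.3 to 19.0), 37.1 in CT TAC (35.1 to 39.1) and 15.4 in CT baseline (14.3 to 16.5). Vim relative to Des was therefore higher in both TAC libraries than in both baseline libraries. Krt18 reads per 100 Des reads were 0.980 in cKO TAC (0.742 to 1.27), 0.302 in cKO baseline (0.165 to 0.507), 0.453 in CT TAC (0.284 to 0.687) and 0.104 in CT baseline (0.0383 to 0.227). Krt18 reads per 100 Vim reads were 3.12 in cKO TAC (2.35 to 4.06), 1.71 in cKO baseline (0.933 to 2.89), 1.22 in CT TAC (0.764 to 1.86) and 0.677 in CT baseline (0.248 to 1.48). Krt18 relative to Vim was thus highest in cKO TAC, where the interval lay above those of both CT libraries and overlapped that of cKO baseline.

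Synm encodes synemin, a large partner that cannot form filaments alone and co-assembles with desmin or vimentin. Synm (chromosome 7, 67730160 to 67759742) had 30.7 reads in cKO TAC, 14.3 in cKO baseline, 14.3 in CT TAC and 16.7 in CT baseline, and the source of these fractions of reads is not known. In CPM these were 16.7 in cKO TAC, 8.77 in cKO baseline, 7.15 in CT TAC and 6.18 in CT baseline. The library labelled cKO TAC stood above the other 3, but its interval (11.3 to 23.7) overlapped those of cKO baseline (4.83 to 14.6) and CT TAC (3.94 to 11.9). The log2 ratio was 1.17 for cKO TAC over CT TAC (ratio interval 1.25 to 4.91), the only pair in which Synm passed. It was 0.89 for cKO TAC over cKO baseline (1.02 to 4.01). Limma called Synm for neither term (adjusted p = 0.532 for TAC and 0.655 for genotype).

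Nes, which encodes nestin and in the heart is found in endothelial and nerve cells as well as in regenerating muscle, passed in no pair. The gene (chromosome 3, 87971078 to 87980451) had 72.9 CPM in cKO TAC (61.1 to 86.3), 67.3 in cKO baseline (55.3 to 81.1), 91.3 in CT TAC (78.6 to 106) and 61.9 in CT baseline (52.9 to 72.0). CT TAC was the highest library, and its interval lay above that of CT baseline but overlapped that of each cKO library. The log2 ratio was 0.56 for CT TAC over CT baseline (ratio interval 1.19 to 1.83) and 0.11 for cKO TAC over cKO baseline (0.835 to 1.41). Schwann and neural markers were near the limit of detection, with 4 of 8 measured and summed levels of 6.49 to 10.5 CPM. In relation to Vim, which itself was higher under TAC, Nes was lower in the TAC libraries. It had 7.33 reads per 100 Vim reads in cKO TAC (6.10 to 8.74) and 13.5 in cKO baseline (10.9 to 16.4). In CT TAC it had 10.2 (8.68 to 11.8) and in CT baseline 18.8 (15.9 to 22.3). The intervals of cKO baseline and CT TAC overlapped, and the CPM of Nes was not lower under TAC in either genotype.

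The lamin genes differed by less than 2-fold in every pair. Lmna, on chromosome 3 from 88480147 to 88509956, had 157 CPM in cKO TAC (139 to 176), 127 in cKO baseline (110 to 145), 102 in CT TAC (88.6 to 117) and 109 in CT baseline (97.1 to 122). Its values, too, hold fractions of reads in 3 libraries, and gene-level values do not separate lamin A from lamin C. Both cKO libraries were above both CT libraries, though the interval of cKO baseline overlapped both CT intervals. Lmna had a log2 ratio of 0.62 for cKO TAC over CT TAC (ratio interval 1.28 to 1.85) and 0.21 for cKO baseline over CT baseline (0.965 to 1.39). In limma's fit the genotype difference of 0.41 (SE 0.20) did not pass (adjusted p = 0.651).

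The B-type lamins were at the low end of detection. Lmnb1 (chromosome 18, 56707813 to 56753424) had 8 reads in cKO TAC, 7 in cKO baseline, 8 in CT TAC and 11 in CT baseline, or 4.35 CPM in cKO TAC, 4.28 in cKO baseline, 3.99 in CT TAC and 4.08 in CT baseline. Lmnb2 (chromosome 10, 80901203 to 80918245) had 8 reads in cKO TAC, 12 in cKO baseline, 14 in CT TAC and 13 in CT baseline, or 4.35 CPM in cKO TAC, 7.34 in cKO baseline, 6.99 in CT TAC and 4.82 in CT baseline. All intervals of the ratios of these 2 genes included 1, and for Lmnb1 in cKO TAC over cKO baseline the interval ran from 0.322 to 3.29, so a difference of 2-fold was not detectable at this depth. There were 18.1 Lmna reads per B-type lamin read in cKO TAC (10.9 to 32.0), 10.9 in cKO baseline (6.80 to 18.5), 9.32 in CT TAC (5.99 to 15.2) and 12.3 in CT baseline (8.10 to 19.5), with overlapping intervals.

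Levels of different genes were set side by side as CPM per kb of the longest coding transcript. On this scale Des had 1044 CPM per kb in cKO TAC, 937 in cKO baseline, 800.3 in CT TAC and 704 in CT baseline, and ranked between 60 and 97 of 12038 genes with a length. Vim followed with 453 in cKO TAC, 228 in cKO baseline, 409.7 in CT TAC and 149.8 in CT baseline, and Lmna with 49.7 in cKO TAC, 40.1 in cKO baseline, 32.4 in CT TAC and 34.6 in CT baseline. These 3 genes held the first 3 places in each library. Nes came next, with 11.0 in cKO baseline, 14.9 in CT TAC and 10.1 in CT baseline. In cKO TAC it had 11.9, and Krt18 stood above it there with 21.6 CPM per kb. Krt18 had 5.96 in cKO baseline, 7.64 in CT TAC and 1.55 in CT baseline, a rank of 2365 in cKO TAC and of 9315 in CT baseline. The B-type lamins and Synm lay between 0.790 and 2.13 CPM per kb in all libraries, and their order did not hold between libraries.

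**Figure D3:**
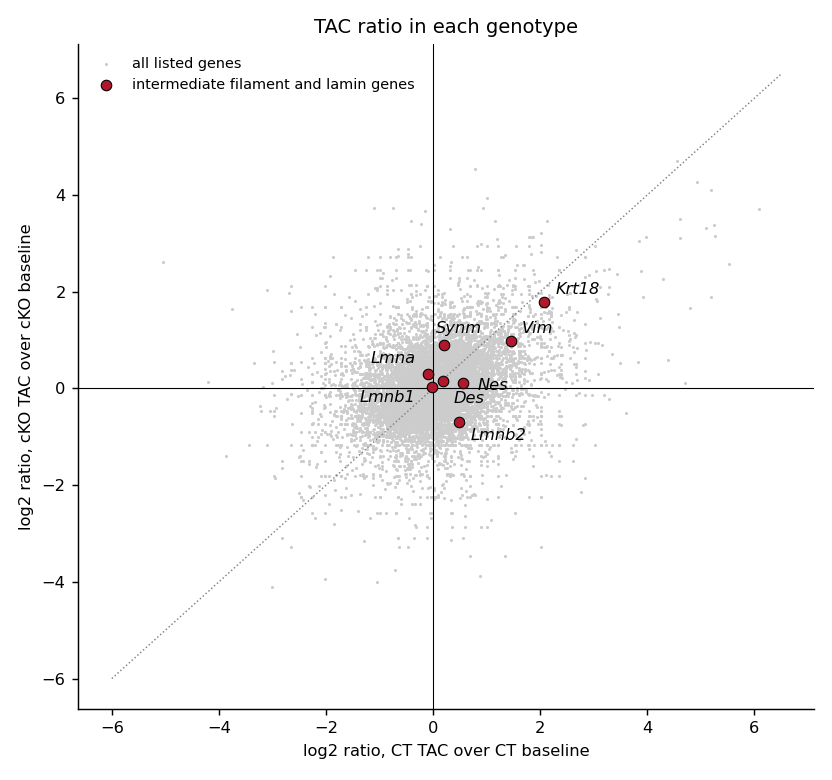
Log2 ratio of TAC over baseline in CT (horizontal axis) and in cKO (vertical axis) for all 12408 genes in grey and the 8 intermediate filament and lamin genes in red; the dotted line marks equal ratios. Krt18 and Vim lay high on both axes, and Lmnb2 had 0.49 in CT and -0.69 in cKO.

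Whether the TAC ratio differed between genotypes could be given only with its counting error, since 1 mouse per group leaves no residual. The TAC log2 ratio in cKO minus that in CT was -0.46 for Vim (interval -0.63 to -0.29), a smaller ratio in cKO. It was -0.28 for Krt18 (-1.83 to 1.27), -0.03 for Des (-0.11 to 0.05), -0.44 for Nes (-0.92 to 0.03) and 0.69 for Synm (-0.67 to 2.06), all with intervals that included 0. It was 0.41 for Lmna (0.04 to 0.77). Lmnb1 had 0.05 (-1.92 to 2.01) and Lmnb2 -1.19 (-2.88 to 0.50). Of the 11963 genes with reads in all libraries, 7.62% differed by at least 1 log2 unit with a counting interval that excluded 0, and no member did.

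As a group, 2 of the 8 members were higher and none was lower for CT TAC over CT baseline (median log2 ratio 0.35, against 0.01 for all genes), where 6.05% of all genes were higher and 4.69% lower. For cKO TAC over cKO baseline 1 was higher and none lower (median 0.23, against -0.00 for all genes), where 3.69% were higher and 2.83% lower. For cKO TAC over CT TAC 2 were higher and none lower (0.26 against 0.01), and for cKO baseline over CT baseline 1 was higher and none lower (0.44 against 0.00); Of all genes, 2.93% were higher and 2.09% lower for cKO TAC over CT TAC, and 3.26% were higher and 1.81% lower for cKO baseline over CT baseline. Of the genes that passed for cKO TAC over CT TAC, 58.4% were higher, and 72.2% when libraries were scaled to total reads. The TAC pair of each genotype and the genotype pair of each state share libraries. The members were chosen with earlier results of these data known, so these counts describe them only.

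The 3 genes closest in pattern to Krt18 and to Vim were found by the root mean square difference of centred log2 CPM over the 4 libraries, among the genes with a mean of at least 10 CPM. For Krt18 the closest of 8092 genes was Ctgf, a matricellular gene of the CCN family and a known target of YAP (difference 0.24 log2 units), with 852 CPM in cKO TAC, 354 in cKO baseline, 291 in CT TAC and 81.2 in CT baseline. Mfap5, a microfibril protein (0.28), and Rpsa, a ribosomal protein gene with processed copies in the genome and so an uncertain value (0.35), came next. For Vim the closest were Abi3bp, a matrix protein (0.03), Anxa2, a calcium-dependent membrane-binding protein (0.04), and Pla2g4a, a cytosolic phospholipase (0.04). Anxa2 had 252 CPM in cKO TAC, 124 in cKO baseline, 236 in CT TAC and 87.5 in CT baseline. Abi3bp held fractions of reads. Likeness over 4 libraries is a description and rests on few points. Krt18 had only 14 reads in cKO baseline and 6 in CT baseline (2.22 CPM, interval 0.816 to 4.84). The order of the genes closest to Krt18 is therefore not resolved. Abi3bp and Pla2g4a had low levels in CT baseline too (8.60 and 7.04 CPM). The order of the genes closest to Vim is likewise not resolved.

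**Figure D4:**
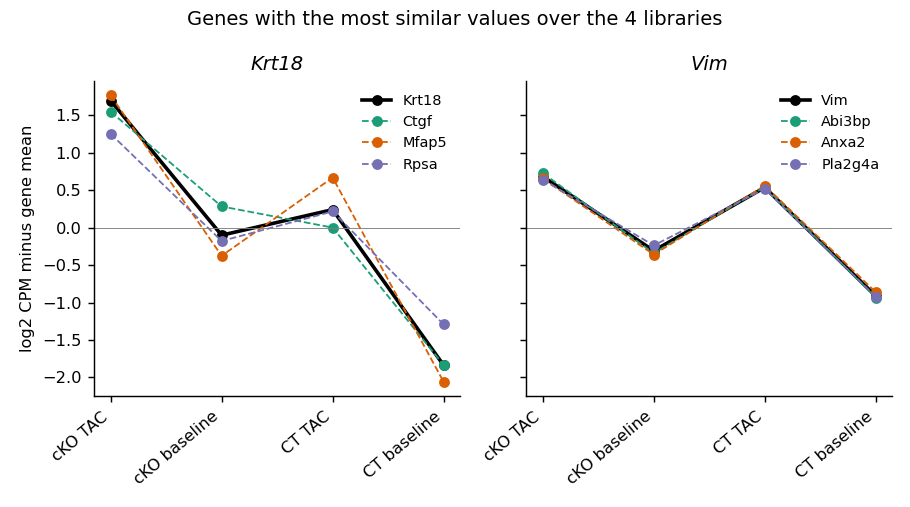
Log2 CPM minus the gene's own mean (vertical axis) in the 4 libraries for Krt18 and Vim (black) and for the 3 genes closest to each (colours); lines join the values of 1 gene and imply no order in time. The genes closest to Vim lay within 0.05 log2 units of it and those closest to Krt18 within 0.36, as root mean square differences.

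Genes of proteins that anchor, fold or process the filaments were read against the shares of all genes that passed, which were 10.7% for CT TAC over CT baseline, 6.52% for cKO TAC over cKO baseline, 5.02% for cKO TAC over CT TAC and 5.07% for cKO baseline over CT baseline. Of the other 29 intermediate filament genes named, 3 were measured (Krt80, Krt222 and the syncoilin gene Sync), and none passed in any pair. Of 22 measured linkers and Z-disc or costamere partners, 1 was higher and 1 lower for CT TAC over CT baseline, 1 was lower for cKO baseline over CT baseline, and none passed in the other pairs. Periplakin (Ppl), a plakin that binds keratins and vimentin, had 7.49 CPM in CT TAC against 22.6 in CT baseline. Epiplakin (Eppk1), a keratin-binding plakin, had 18.0 CPM in CT TAC against 6.67 in CT baseline. Dystrophin (Dmd), which links the cytoskeleton to the membrane, had 26.0 CPM in cKO baseline against 62.8 in CT baseline (log2 ratio -1.26), with fractions of reads. It had 45.0 CPM in cKO TAC against 87.8 in CT TAC (-0.95), which did not pass. Desmoplakin (Dsp), the desmin anchor of desmosomes, had log2 ratios between -0.26 and 0.07, and plectin (Plec), the main cross-linker of desmin, between -0.56 and 0.09.

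Among 19 chaperone and quality control genes only Hspa8, the constitutive Hsc70 chaperone, passed. It had 2317 CPM in CT TAC against 931 in CT baseline (log2 ratio 1.31), and 1033 in cKO TAC against 2317 in CT TAC (-1.17). Processed copies of Hspa8 exist elsewhere in the genome and could share its reads. Cryab, the small heat shock protein that binds desmin, had 6747 CPM in cKO TAC, 5375 in cKO baseline, 9094 in CT TAC and 4898 in CT baseline, and passed in no pair.

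Among 24 lamin-binding and nuclear envelope genes, 1 was higher and 1 lower for CT TAC over CT baseline and 1 was higher for cKO TAC over CT TAC. Nup50, a nuclear pore protein, had 59.4 CPM in CT TAC against 29.3 in CT baseline. Tmem201, an inner nuclear membrane protein also called Samp1, had 23.0 CPM in CT TAC against 58.3 in CT baseline (log2 ratio -1.33) and 21.8 in cKO TAC against 43.4 in cKO baseline (-0.98). In limma's fit it fell under TAC by 1.15 log2 units (SE 0.25, adjusted p = 0.0479, lower in 2 of 2 pairs), the only gene called in the 6 lists of partner genes. The call was lost when the variance prior did not follow mean expression, a setting in which limma called 0 genes for TAC. Its adjusted p lay close to the threshold, and its call under the other alternatives is not reported here. Over all genes, limma's number of TAC calls fell from 226 to 132 with 0.5 reads added. The value of Tmem201 in CT baseline holds a fraction of a read. Syne3, the gene of nesprin-3, which joins the nucleus to plectin, had 12.2 CPM in cKO TAC against 3.00 in CT TAC (log2 ratio 1.87, on 22.5 against 6 reads). Emd, Lbr and Sun2, which encode the lamin binders emerin, the lamin B receptor and a linker of lamins to the cytoskeleton, passed in no pair.

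Of 8 genes of lamin processing, Fntb, a subunit of the farnesyltransferase that modifies prelamin A and the B-type lamins, had 3.49 CPM in CT TAC against 10.4 in CT baseline (log2 ratio -1.45). Icmt, which methylates the same tail, had 2.72 CPM in cKO TAC against 9.48 in CT TAC (-1.64, on 5 against 19 reads). Zmpste24, the protease that matures lamin A, had ratios between -0.14 and 0.39 on the log2 scale and did not pass. None of 6 transcription regulators tied to the nuclear skeleton (Srf, Mkl1, Mkl2, Yap1, Wwtr1 and Rb1) passed in any pair.

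**Figure D5:**
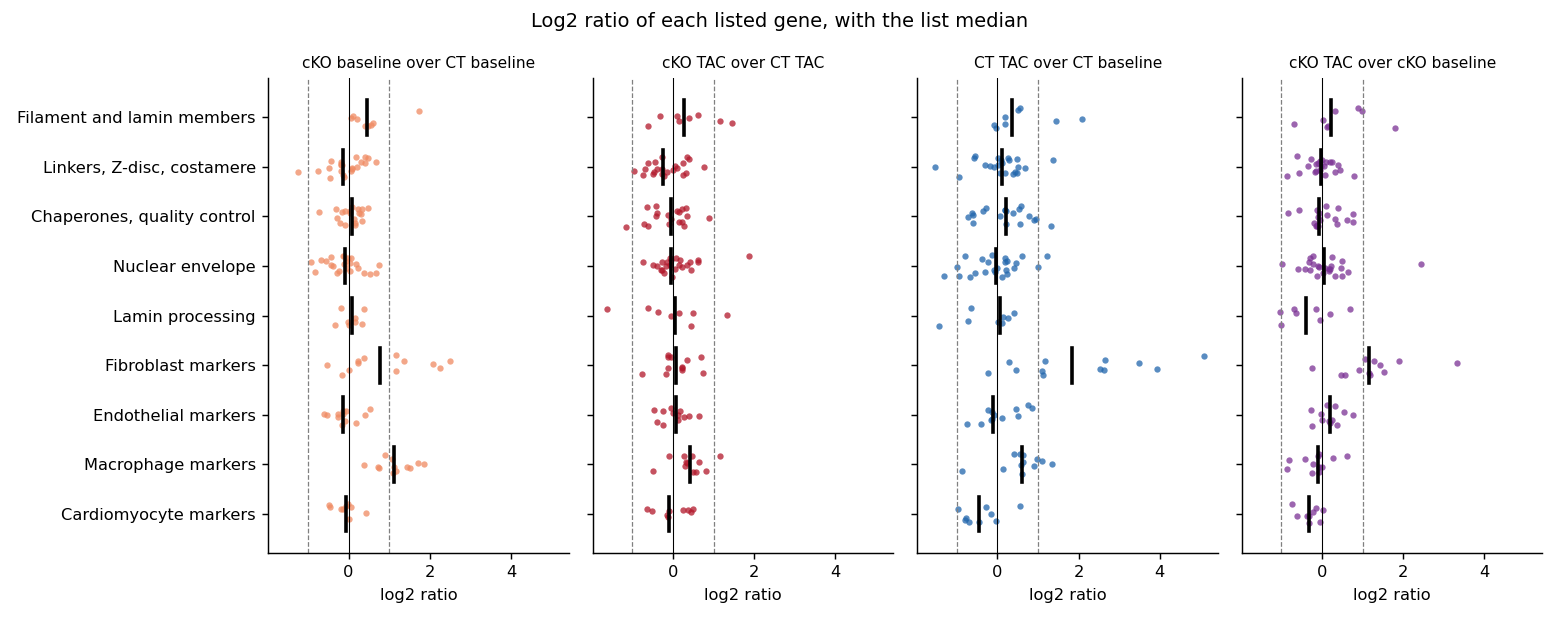
Log2 ratio (horizontal axis, the same in all panels) of every measured gene of 9 lists for the 4 pairs of libraries; points are genes, black bars list medians and dashed lines 2-fold. Medians of the partner lists with 6 or more measured genes lay between -0.39 and 0.20, while fibroblast markers had 1.85 for CT TAC over CT baseline and 1.17 for cKO TAC over cKO baseline.

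Markers of other cell types were set beside Krt18, since simple epithelia and mesothelium carry it. Of 7 mesothelial markers 1 was measured, Wt1, with 2.72 CPM in cKO TAC, 4.28 in cKO baseline, 0.998 in CT TAC and 3.34 in CT baseline. It had 5 reads in cKO TAC, 7 in cKO baseline, 2 in CT TAC and 9 in CT baseline, too few to order the libraries. Of 16 cycling-cell markers 13 were measured, with summed levels of 152 CPM in cKO TAC, 115 in cKO baseline, 140 in CT TAC and 104 in CT baseline. The order of these sums over the libraries, and that of the fibroblast sums above, was the order of Krt18. For cKO TAC over CT TAC 6 of 12 fibroblast markers had a log2 ratio above 0, with a median of 0.08 against 1.46 for Krt18. For cKO baseline over CT baseline 10 of 12 were above 0 (median 0.77, against 1.74 for Krt18). In CT TAC over CT baseline 11 of 12 were above 0 (1.85 against 2.08). In cKO TAC over cKO baseline 11 of 12 were (1.17 against 1.80). Single cycling markers varied. Top2a, Ccna2 and Birc5 had the order of Krt18, on few reads, with Top2a at 11.4 CPM in cKO TAC and 3.34 in CT baseline. Mki67 and Cdk1 were highest in CT TAC (29.9 and 29.5 CPM) and Cenpf in CT baseline (46.3 CPM). These markers were named after their values were seen. For cKO TAC over CT TAC 9 of the 13 cycling markers had a log2 ratio above 0 (median 0.42). Of 10 mural markers, all measured, the sum was 1182 CPM in cKO TAC, 1424 in cKO baseline, 848 in CT TAC and 1157 in CT baseline. Acta2 alone had 490 CPM in cKO TAC, 594 in cKO baseline, 161 in CT TAC and 202 in CT baseline. The median log2 ratio of the 10 mural markers was 0.01 for cKO TAC over CT TAC and -0.12 for cKO baseline over CT baseline. Of 6 erythroid markers 4 were listed, and Hbb-b1 and Hbb-bs had identical values in every library and were counted once. Their sum was 2240 CPM in cKO TAC, 1565 in cKO baseline, 737 in CT TAC and 1092 in CT baseline. Of 5 atrial markers 2 were measured (62.5 to 122 CPM in sum), of 5 neutrophil markers 3 (10.5 to 21.3 CPM) and of 10 lymphocyte markers 2 (up to 4.35 CPM, with both at 0 reads in CT baseline). The part of these cell types in the values of Krt18 was not tested.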

How the data were processed

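RNA of whole hearts was purified on columns and sequenced from Illumina libraries, per the labels' protocols. HISAT2, CASAVA, edgeR and mm10 are named in the submitters' processing notes, without roles or versions. How the authors counted reads, on which annotation and with which gene filter is not given in the sources used here. What the authors deposited was taken from its range and grid to be log2 CPM. The grid gives back the reads, whole within 0.01 reads for 88.6% to 89.0% of genes per library. In 2449 genes at least 1 library held a fraction of a read.

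Log2 ratios are differences of the deposited log2 values, which include an added read and so understate ratios of genes with few reads. CPM and reads are given without it. Intervals are 95% Clopper-Pearson (ratios, shares) or Poisson (levels) intervals of the recovered reads, and the difference of 2 ratios used a normal interval. They cover counting error only, and PCR copies are not independent molecules. Count tests were not used, since the files hold log2 values. The fit across all genes used limma 3.58.1 in R 4.3.3, with its variance prior following mean expression. It was also run on simulated data, which held no genotype effect and so do not check the calls made here. The fit had 1 residual and 10.1 prior degrees of freedom, and calls are at an adjusted p under 0.05. Lengths and gene positions are from GENCODE M21 (GRCm38, the same build as mm10), and 12038 of 12408 genes had a length. A promoter sequence was matched for 7 of 8 members.

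All 8 measured members are named. From partner lists, passing genes are named, at most 4 per list and pair, and a few well-known partners that did not pass were chosen after their values were seen. The genes closest in pattern to Krt18 and Vim are named, and those closest to Synm are not reported here. Members, lists and tests were chosen with earlier results of these data known. Alternatives were other scalings, 0.5 added reads, a minimum mean of 5 CPM, no trend, no second term and, chosen after seeing the data, fits without 1 library.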

Additional observations from a re-analysis of the deposited data

Results flagged for a closer look

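Lmna was picked out because its TAC ratio had opposite signs in the 2 genotypes and the gap exceeded counting error. The log2 ratio was 0.31 for cKO TAC over cKO baseline and -0.10 for CT TAC over CT baseline, a difference of 0.41 with a counting SE of 0.19. With 1 mouse per group the difference between genotypes was not tested against the spread between mice, and the counting interval of the CT ratio (0.779 to 1.12) included 1.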

How the results depend on the processing

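No paired analysis was possible because each group holds 1 mouse and the labels give no replicate numbers that link groups. The number of genes that passed in each pair stayed within 1.5 times under every scaling, with 0.5 reads added and at a mean of at least 5 CPM. Scaling to total reads shifted the median of all genes by 0.10 log2 units for cKO TAC over CT TAC and for cKO baseline over CT baseline, and moved the higher share of passing genes to 72.2% against 58.4% in the TAC pair. Of the members, Krt18 passed in all 4 pairs, Vim for CT TAC over CT baseline and Synm for cKO TAC over CT TAC under all 4 alternatives, and Vim for cKO TAC over cKO baseline passed under 1 of 4 (1.00).

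limma's count for TAC, 226 genes, was 132 with 0.5 reads added, 20 without the genotype term and 0 without the trend (2012 genes had an unadjusted p under 0.05 in the fit reported), and, in fits that also lack the genotype term, 59 without cKO TAC, 87 without cKO baseline, 35 without CT TAC and 9 without CT baseline. For genotype, 3 genes, it was 5 with median-ratio factors, 9 at a mean of at least 5 CPM, 0 without the trend and 0 without the surgery term, and, in fits that also lack the surgery term, 89 without CT TAC, 13 without CT baseline and 0 without either cKO library. Vim and Krt18 lost the TAC call without the trend (adjusted p = 0.333 and 0.297; ranges in the results above) and without the genotype term (0.117 and 0.27). The genotype difference of Krt18 was 2.64 in the fit without CT TAC and without the surgery term. That fit sets cKO TAC and cKO baseline against CT baseline alone, so genotype and TAC cannot be told apart in it. Only uncalled values changed sign. Scaled to total reads, Lmnb1 had 0.0058 for TAC and Lmnb2 0.054 for genotype. Without cKO TAC the TAC difference was -0.022 for Des and -0.039 for Synm, without CT baseline -0.036 for Des, and for Lmnb1 0.029 without cKO baseline and 0.052 without CT TAC. Over the fits without 1 library, all of which lack the second term, it ran from -0.20 to 0.42 for Lmna and -0.41 to 0.21 for Lmnb2. The genotype difference of Vim was -0.12 without cKO TAC, with a range of -0.35 to 1.10, and ran from -0.38 to 0.18 for Nes and -0.38 to 0.31 for Lmnb2. In a fit without 1 library the genotype difference takes in part of the TAC difference, and the reverse. The ranges and sign changes in these fits therefore do not show how stable either difference is. Between libraries of the same state, Vim had 0.60 for cKO baseline over CT baseline and 0.15 for cKO TAC over CT TAC.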
